A study of Mus musculus with 19 samples.

Results

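The genes described here are 10 markers of the trophectoderm, the outer layer of the blastocyst: the transcription factor genes Cdx2, Eomes, Elf5, Gata3, Tfap2c, Ascl2 and Hand1, and the keratin genes Krt8, Krt18 and Krt19. They were chosen by symbol and protein coding type, and all 10 were found among the 55416 gene rows of the count table. Their RNA was measured in 19 mouse embryonic stem cell (mESC) lines, each grown from 1 blastomere of an 8-cell embryo from a mating of B6CBAF1/J females with B6CBAF1/J males, so that the embryos differ in genotype. A single library was sequenced per line, and the 3 embryos contributed 5 lines (embryo 1, lines 1.1 to 1.5), 7 lines (embryo 2, lines 2.1 to 2.7) and 7 lines (embryo 3, lines 3.1 to 3.7). All lines were kept in the same medium, with leukemia inhibitory factor, the MEK inhibitor PD0325901 and the TGFβ inhibitor SB431542, on inactivated human foreskin fibroblasts that were taken away before RNA extraction. Groups I and II are those the study drew from these same libraries, by a principal component plot of all lines after differences between embryos had been removed, with line 2.2 placed in group II by a network analysis. Group I held lines 1.1, 1.3, 1.4, 2.3, 2.4, 2.5, 2.6, 3.4, 3.5, 3.6 and 3.7, and group II held lines 1.2, 1.5, 2.1, 2.2, 2.7, 3.1, 3.2 and 3.3, so that a difference between them is a description of these libraries and not independent evidence. Since each embryo gave 1 set of sister lines, the embryo and anything else that differed between the sets cannot be told apart, and p-values between embryos measure the spread among sister lines only.

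The trophectoderm forms the epithelium that pumps fluid into the blastocyst, carries the embryo into implantation and gives rise to the trophoblast of the placenta. Tead4 with its Hippo-regulated partner Yap1 turns on Cdx2 and Gata3 in outer cells, Eomes, Elf5 and Tfap2c maintain trophoblast stem cells, and Ascl2 and Hand1 act in spongiotrophoblast and giant cells. Keratin 8 pairs with keratin 18 or 19 into the filaments of this epithelium, while mESCs come from the epiblast, the lineage that forms the embryo itself.

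The total count per line ran from 33846569 to 48740941 with a median of 41942274, and 0 of 171 pairs of libraries were identical. The lines carried the markers of pluripotent cells, with Pou5f1, Sox2, Nanog, Zfp42, Esrrb and Tdgf1 summing to 2391 to 4277 CPM (the count scaled to the library total by the TMM method) in each line. Markers of mesoderm and primitive streak summed to 1.26 to 5.19 CPM, and the sums of primitive endoderm and fibroblast markers are given beside the results they moved with. A bulk library cannot show whether a lower value means fewer cells that express a gene or less RNA per cell, as these cannot be told apart. The median expression of the genes on each chromosome that holds a member was shifted in a line by -0.07 to 0.08 at most on the log2 scale against its sister lines.

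Levels between genes were compared per kilobase of exon. Tfap2c stood highest, at a median over lines of 28.6 CPM per kilobase, followed by Krt18 at 18.8, Krt8 at 17.0 and Krt19 at 8.80. Ascl2 (2.47), Eomes (1.57), Gata3 (1.16) and Hand1 (1.03 CPM per kilobase) formed a lower tier. Cdx2 and Elf5, which specify and maintain the trophoblast stem cell state, were the lowest with medians of 0.162 and 0.0553 CPM per kilobase. Over the 19 lines the ranges of every pair of neighbours in this order overlapped.

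**Figure D1:**
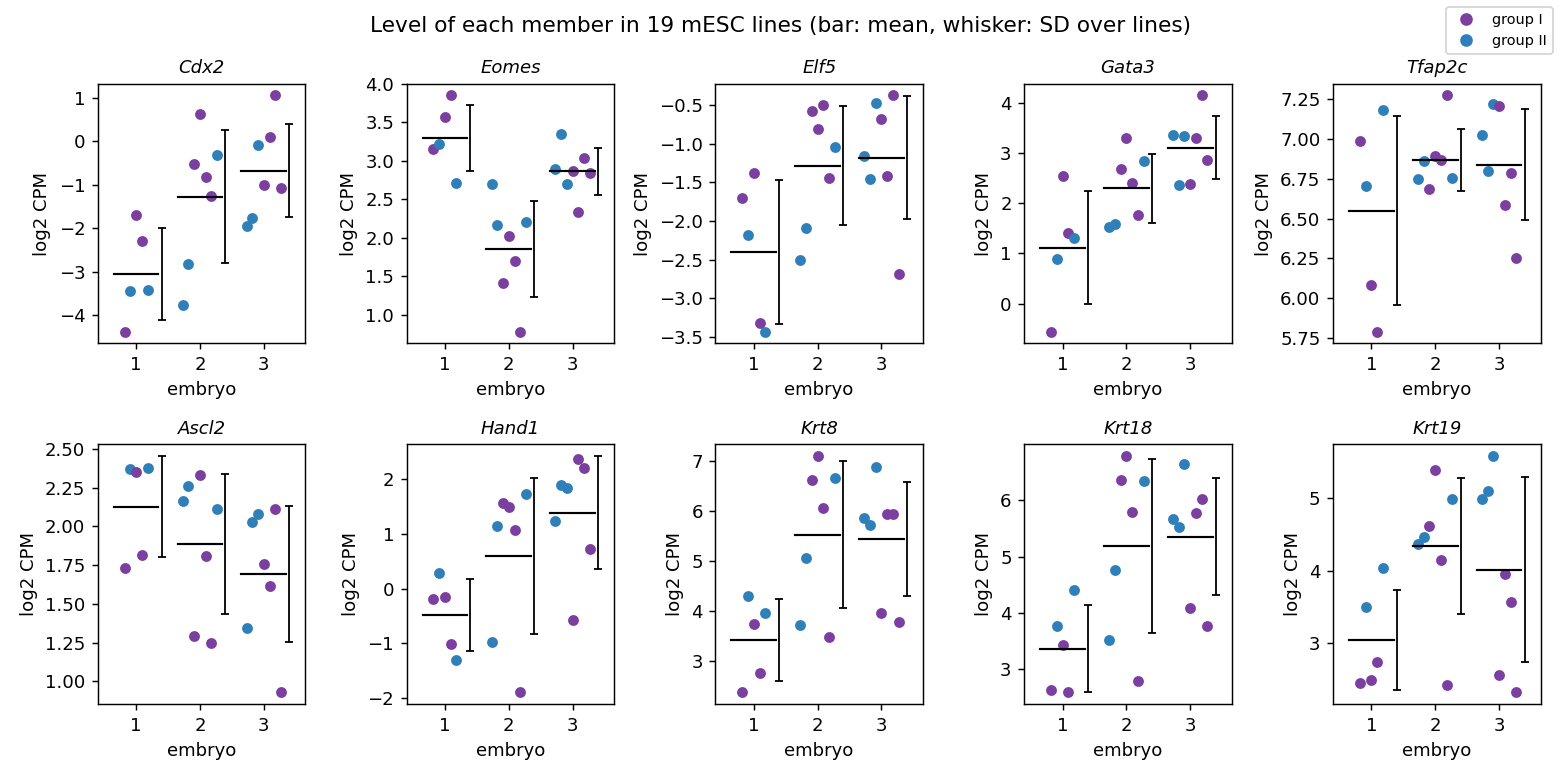
Level of each member in each of the 19 lines, as log2 CPM with a prior count of 2 (vertical axis), by embryo (horizontal axis) and coloured by group, with the mean and SD over the lines of an embryo. Eomes in embryo 2 lies wholly below embryo 1, while Krt8 and Krt18 spread over a wide range within embryos 2 and 3.

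Eomes, a T-box factor needed for trophoblast stem cells and later for endoderm, had the lowest adjusted p of the members among the embryos. In CPM, embryo 1 held 8.85 (line 1.1), 9.27 (line 1.2), 11.8 (line 1.3), 14.4 (line 1.4) and 6.53 (line 1.5). Embryo 2 ran from 1.67 (line 2.6) through a median of 4.00 to 6.46 (line 2.1), and embryo 3 from 5.00 (line 3.5) through 7.25 to 10.2 (line 3.2). Every line of embryo 2 was thus below every line of embryo 1, and embryo 3 overlapped with both. The share of all genes with no overlap between embryos 1 and 2 was not counted. The means were 10.2 ± 3.01 CPM (SD, n = 5), 3.85 ± 1.55 CPM (n = 7) and 7.37 ± 1.58 CPM (n = 7).

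Cdx2, the homeobox factor that directs cells to the trophectoderm, was barely expressed. Its counts were 0 in line 1.1, which allows up to 0.0862 CPM for 3 counts, counting error only, and its highest level was 2.04 CPM in line 3.6. Embryo 1 reached 0.259 CPM at most (line 1.3, with 0.0449 CPM as the median), embryo 2 ran from 0.0256 through 0.514 to 1.50 CPM (line 2.4), and embryo 3 from 0.211 through 0.451 to 2.04 CPM. The lines of embryo 1 overlapped with the lowest lines of the other embryos. Elf5, an ETS factor that locks in the trophoblast fate, had medians of 0.173, 0.436 and 0.399 CPM in embryos 1, 2 and 3, and the 3 ranges overlapped.

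Gata3, a zinc finger factor that acts beside Cdx2, had medians in ascending order from embryo 1 to embryo 3. Embryo 1 held 0.632 (line 1.1), 1.79 (1.2), 5.77 (1.3), 2.60 (1.4) and 2.43 CPM (1.5), embryo 2 ran from 2.82 (line 2.1) through 5.27 to 9.72 CPM (line 2.4), and embryo 3 from 5.09 (line 3.2) through 9.75 to 17.6 CPM (line 3.6). Only line 1.3 of embryo 1 reached the range of embryo 3. Hand1, a basic helix-loop-helix factor of giant cells, ran from 0.359 through 0.833 to 1.17 CPM in embryo 1, from 0.221 (line 2.6) through 2.16 to 3.26 CPM in embryo 2 and from 0.627 (line 3.4) through 3.53 to 5.13 CPM (line 3.5) in embryo 3. Lines 2.1 and 2.6 (0.462 and 0.221 CPM) were the lowest for Hand1 in embryo 2, and line 3.4 in embryo 3. Tfap2c, an AP-2 factor of the trophectoderm and of germ cells, kept between 55.2 and 155 CPM over all lines, and Ascl2, a factor of the spongiotrophoblast, between 1.86 and 5.14 CPM. Both varied by less than 3-fold over the 19 lines (2.80-fold and 2.77-fold), against 27.9-fold for Gata3.

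The keratins Krt8 and Krt18 are neighbours on chromosome 15 and lie in opposite orientation (Krt8 at 101905133 to 101912917 on the minus strand and Krt18 at 101936615 to 101940462 on the plus strand, GRCm39). Krt8 held 5.11 (line 1.1), 19.5 (1.2), 13.3 (1.3), 6.69 (1.4) and 15.5 CPM (1.5) in embryo 1. In embryo 2 it ran from 11.04 CPM (line 2.6) through 66.4 to 136 CPM (line 2.4), and in embryo 3 from 13.7 CPM (line 3.7) through 58.1 to 117 CPM (line 3.3). Lines 2.1, 2.6, 3.4 and 3.7, at 13.1, 11.04, 15.4 and 13.7 CPM, overlapped with embryo 1, and the other lines of embryos 2 and 3 stood above all of it. Krt18 gave 6.20, 13.7, 10.7, 5.99 and 21.3 CPM in lines 1.1 to 1.5, 6.87 through 55.3 to 110 CPM in embryo 2, and 13.7 through 51.1 to 100 CPM in embryo 3. The highest line over the lowest was 26.6-fold for Krt8 and 18.4-fold for Krt18, and lines 2.4, 2.3, 2.7 and 3.3 were the 4 highest for both partners. Krt19, the other type I partner of keratin 8, ran from 5.40 through 6.64 to 16.3 CPM in embryo 1, from 5.32 (line 2.6) through 21.9 to 41.7 CPM in embryo 2 and from 4.95 (line 3.7) through 15.5 to 47.6 CPM in embryo 3.

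The promoters of Krt8, Krt18, Gata3 and Cdx2, among the members that moved together, are shown, as RefSeq sequence from 250 bases before to 20 after the annotated start, 5′ to 3′ in the direction of transcription, with capitals on the motif matches found. Of the 10 members 7 had an entry in the RefSeq table of GRCm38.p6. Tfap2c, Hand1 and Krt19 had none, so Hand1 and Krt19, which also moved with Krt8 and Krt18, are not shown. The windows shown had an exact match in GRCm39, at chr15:101912758-101913027 (minus strand) for Krt8, chr15:101936401-101936670 (plus strand) for Krt18, chr2:9883392-9883661 (minus strand) for Gata3 and chr5:147244040-147244309 (minus strand) for Cdx2.
Krt8 promoter: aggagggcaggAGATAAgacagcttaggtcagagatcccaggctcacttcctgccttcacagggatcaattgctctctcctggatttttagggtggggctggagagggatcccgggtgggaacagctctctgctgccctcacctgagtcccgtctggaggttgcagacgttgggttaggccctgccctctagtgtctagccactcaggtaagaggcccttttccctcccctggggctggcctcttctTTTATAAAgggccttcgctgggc
Krt18 promoter: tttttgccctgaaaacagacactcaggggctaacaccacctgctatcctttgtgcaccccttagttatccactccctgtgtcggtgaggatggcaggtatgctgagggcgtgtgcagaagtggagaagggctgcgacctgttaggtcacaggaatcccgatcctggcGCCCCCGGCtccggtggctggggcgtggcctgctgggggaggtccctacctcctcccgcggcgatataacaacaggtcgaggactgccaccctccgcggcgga
Gata3 promoter: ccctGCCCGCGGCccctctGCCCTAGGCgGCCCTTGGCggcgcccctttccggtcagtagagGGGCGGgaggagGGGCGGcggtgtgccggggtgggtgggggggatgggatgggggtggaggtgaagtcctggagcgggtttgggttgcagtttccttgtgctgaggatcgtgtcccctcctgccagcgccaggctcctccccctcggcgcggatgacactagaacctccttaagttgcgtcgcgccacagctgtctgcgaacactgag
Cdx2 promoter: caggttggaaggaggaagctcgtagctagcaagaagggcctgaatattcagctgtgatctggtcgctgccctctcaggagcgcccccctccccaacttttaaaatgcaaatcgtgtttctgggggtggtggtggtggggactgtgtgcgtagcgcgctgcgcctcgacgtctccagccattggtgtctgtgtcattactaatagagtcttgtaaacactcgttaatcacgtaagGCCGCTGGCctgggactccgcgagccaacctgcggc
Both strands were searched for TATAAA (the TATA box, found in 12.9% of 32851 RefSeq promoters), GGGCGG (Sp1 and KLF factors, 34.1%), TGANTCA (AP-1, 7.23%), GCCNNNGGC (TFAP2, 14.8%), GGAATG (TEAD, 13.5%), AGATAA (for GATA factors, 10.5%) and TTTATG (CDX, 11.2%). The Krt8 window held an overlapping pair of TATAAA matches, 1 on each strand, and 1 AGATAA match. The TATAAA pair began at positions -3 and -1 and ran across the annotated start. The Krt18 window held 1 GCCNNNGGC match, Gata3 held 3 of these with 2 of GGGCGG, and Cdx2 held 1 of GCCNNNGGC. The matches are a description of these letters and not of binding.

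Between embryos 2 and 1, edgeR called 3 of the 10 members (fold change over 1.5 with an adjusted p under 0.05), against 4.35% of the 18878 genes tested. Eomes fell by 1.40 on the log2 scale (SE 0.25, adjusted p = 0.00147, edgeR) in embryo 2. Krt8 rose by 2.44 (SE 0.63, adjusted p = 0.0235) and Krt18 by 2.21 (SE 0.62, adjusted p = 0.0372). Cdx2 had a log2 fold change of 2.45 (SE 0.84) that did not pass (adjusted p = 0.0919), nor did Hand1 (1.43, adjusted p = 0.149), Krt19 (1.36, adjusted p = 0.138) and Gata3 (1.02, adjusted p = 0.178). The median log2 fold change of the members was 1.31, beside -0.01 of all genes tested.

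Between embryos 3 and 1, 5 of the 10 were called and all of them rose, against 5.45% of genes called in either direction and 2.25% higher. Cdx2 rose by 2.89 on the log2 scale (SE 0.84, adjusted p = 0.0373 from edgeR), Krt8 by 2.16 (SE 0.62, adjusted p = 0.0353), Krt18 by 2.10 (SE 0.61, adjusted p = 0.0382), Hand1 by 2.06 (SE 0.57, adjusted p = 0.0303) and Gata3 by 1.81 (SE 0.44, adjusted p = 0.0135). With counts of 0, 2, 10, 6 and 2 in lines 1.1 to 1.5, Cdx2 passed the filter on low counts mostly through embryos 2 and 3. Its call is therefore a description of these lines only. The median log2 fold change of all 10 members was 1.59, against -0.01 of all genes. Both comparisons share the 5 lines of embryo 1, and side by side Krt8 gave 2.44 and 2.16 and Eomes -1.40 and -0.46. Between embryos 3 and 2, 1 member was called against 5.63% of genes, Eomes, which rose by 0.94 (SE 0.24, adjusted p = 0.0157, edgeR). Krt8 and Krt18 gave -0.28 (SE 0.52) and -0.11 (SE 0.51) there, and neither passed. Over the 3 embryos together, 5 members differed at an adjusted p under 0.05 against 13.6% of genes: Eomes (adjusted p = 0.00227, edgeR), Gata3 (0.0199), Krt8 (0.0297), Krt18 (0.0413) and Hand1 (0.0488).

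**Figure D2:**
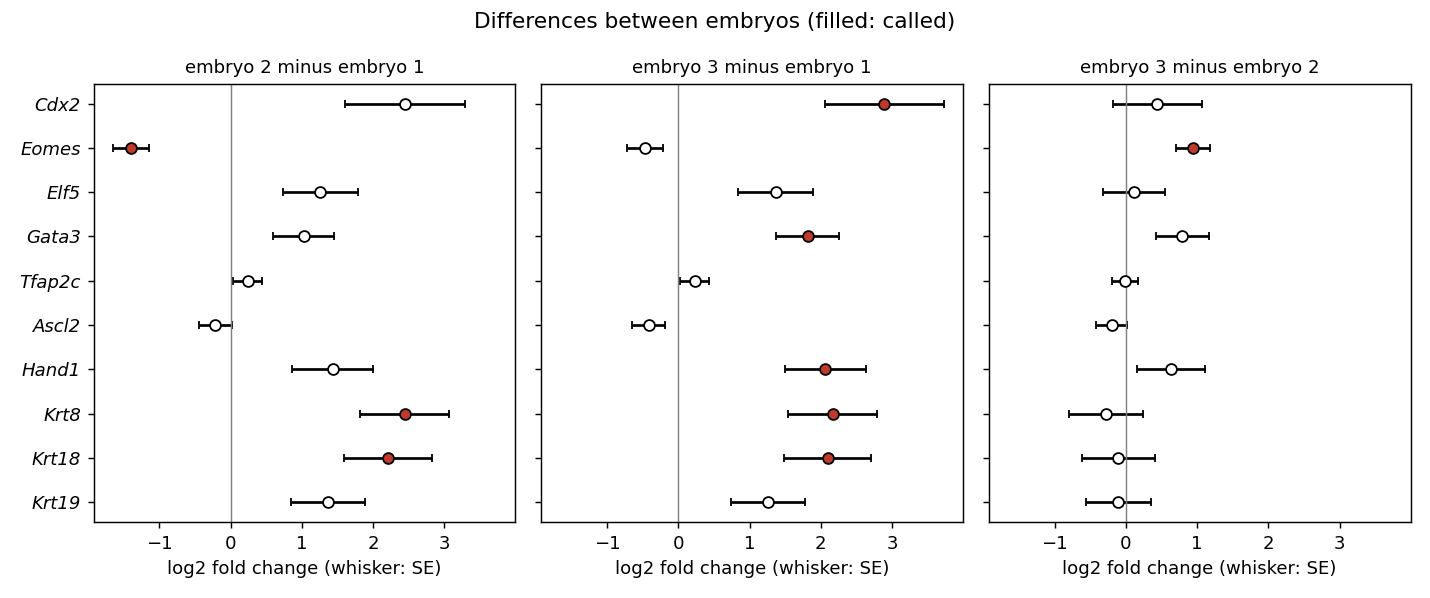
Log2 fold change of each member between embryos (horizontal axis, the same in all panels) with its SE from edgeR, filled where called. The keratins Krt8 and Krt18 lie at 2.44 and 2.21 for embryo 2 and at 2.16 and 2.10 for embryo 3 against embryo 1, while Eomes lies at -1.40 in the first panel.

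The calls of Eomes between embryos 2 and 1 held under all 29 alternatives, with log2 fold changes from -1.58 to -1.24, and that of Gata3 between embryos 3 and 1 was lost in 1 of 29, without the 5 lines 2.2, 3.1, 3.2, 3.6 and 3.7 (adjusted p = 0.0919 from edgeR, log2 fold change 1.66). The other calls against embryo 1 were often lost when a single line was left out. For embryo 2 that of Krt8 was lost without line 1.1, 1.4 or 2.4 (adjusted p up to 0.0700) and that of Krt18 without any of lines 1.1 to 1.4, 2.3, 2.4, 2.5 or 2.7 (up to 0.102). For embryo 3, Krt8 lost its call without any of lines 1.1, 1.3, 1.4, 1.5, 3.3, 3.5 or 3.6 (adjusted p up to 0.0804), Krt18 without 1.1 to 1.4, 3.1, 3.3, 3.5 or 3.6 (up to 0.0865), Cdx2 without 1.1, 1.2, 1.4, 1.5, 3.3, 3.5 or 3.6 (up to 0.0910) and Hand1 without 1.4, 1.5, 3.5 or 3.6 (up to 0.0794). Without lines 2.2, 3.1, 3.2, 3.6 and 3.7, all 5 calls of embryo 3 against embryo 1 were lost. The adjusted p from edgeR was 0.0736 for Cdx2, 0.137 for Hand1, 0.0907 for Krt8 and 0.104 for Krt18. This setting removed most lines of embryo 3. The log2 fold changes did not shrink for Cdx2 (2.95, against 2.89 with all lines), Hand1 (2.08, 2.06), Krt8 (2.42, 2.16) and Krt18 (2.30, 2.10). That of Gata3 was 1.66, against 1.81. A covariate for the mean log2 CPM of 5 fibroblast markers ended 4 of the calls, Cdx2 (2.25, adjusted p = 0.0796), Hand1 (0.0540), Krt8 (0.0600) and Krt18 (0.0636). The signs did not change in any of these. The Eomes call between embryos 3 and 2 was lost without the 5 lines named above (0.74, adjusted p = 0.326, edgeR). The summed CPM of 8 primitive endoderm markers was 38.6 to 65.7 in embryo 1 and 52.7 to 110 in embryo 3, and their part in the results was not tested.

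Between groups I and II, with embryo as a term, 1 of the 10 members was called, against 11.9% of 20333 genes (5.66% higher and 6.23% lower in group I). Krt19 was lower in group I, falling by 1.13 on the log2 scale (SE 0.32, adjusted p = 0.0149, edgeR). Group I ran from 4.95 CPM (line 3.7) through a median of 6.64 to 41.7 CPM (line 2.4), and group II from 11.2 CPM (line 1.2) through 26.7 to 47.6 CPM (line 3.3). In embryo 1 the group I lines held 5.40, 5.59 and 6.64 CPM, below the 11.2 and 16.3 CPM of group II. In embryo 3 the group I lines 3.4, 3.5, 3.6 and 3.7 held 5.87, 15.5, 11.8 and 4.95 CPM, below the 31.5, 34.3 and 47.6 CPM of lines 3.1, 3.2 and 3.3. In embryo 2 the group I lines 2.3, 2.4, 2.5 and 2.6 held 24.5, 41.7, 17.7 and 5.32 CPM and group II 20.5, 21.9 and 31.8 CPM, which overlapped. The share of all genes that separated between the groups as Krt19 did in embryos 1 and 3 was not counted.

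Tested within embryos, edgeR called 0 members in embryo 1 (1 at an unadjusted p under 0.05) against 3.63% of genes (2.94% lower in group I), 0 in embryo 2 (also 1) against 1.01%, and 1 in embryo 3, Krt19 at -1.97 (SE 0.45, adjusted p = 0.0157), against 5.61% (1.8% higher and 3.8% lower in group I). A test of whether the group difference varied among the embryos called 0 members, with 2 at an unadjusted p under 0.05, against 0.0393% of genes, and gave Krt19 an adjusted p of 0.507. Krt8, Krt18 and Ascl2 also lay wholly lower in group I in embryo 1 and Eomes in embryo 2, none of them called. How many of all genes separated in this way was not counted, and with 3 lines against 2 in embryo 1 a full separation can arise by chance. Eomes in embryo 2 had 2.61, 4.00, 3.19 and 1.67 CPM in the group I lines, all below the 6.46, 4.45 and 4.57 CPM of the group II lines (log2 fold change -0.84, SE 0.27, adjusted p = 0.116, edgeR). Cdx2 had the most positive difference, 1.31 (SE 0.53), and did not pass (adjusted p = 0.0729). The summed CPM of 7 fibroblast markers, all with a mean over 1 CPM in group I and 6 of them in group II, was 369 to 743 in group I and 186 to 545 in group II. Primitive endoderm markers, 6 of 8 with a mean over 1 CPM in each group, summed to 47.3 to 110 CPM (median 65.7) in group I and 28.6 to 54.6 CPM (median 43.4) in group II, and their part in the results was not tested. With the mean log2 CPM of 5 of the fibroblast markers as a covariate, the Krt19 call was lost (-1.34, adjusted p = 0.396, edgeR). It was also lost without the 5 lines named above (-1.06, adjusted p = 0.107) and without embryo as a term (-1.03, adjusted p = 0.0775).

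**Figure D3:**
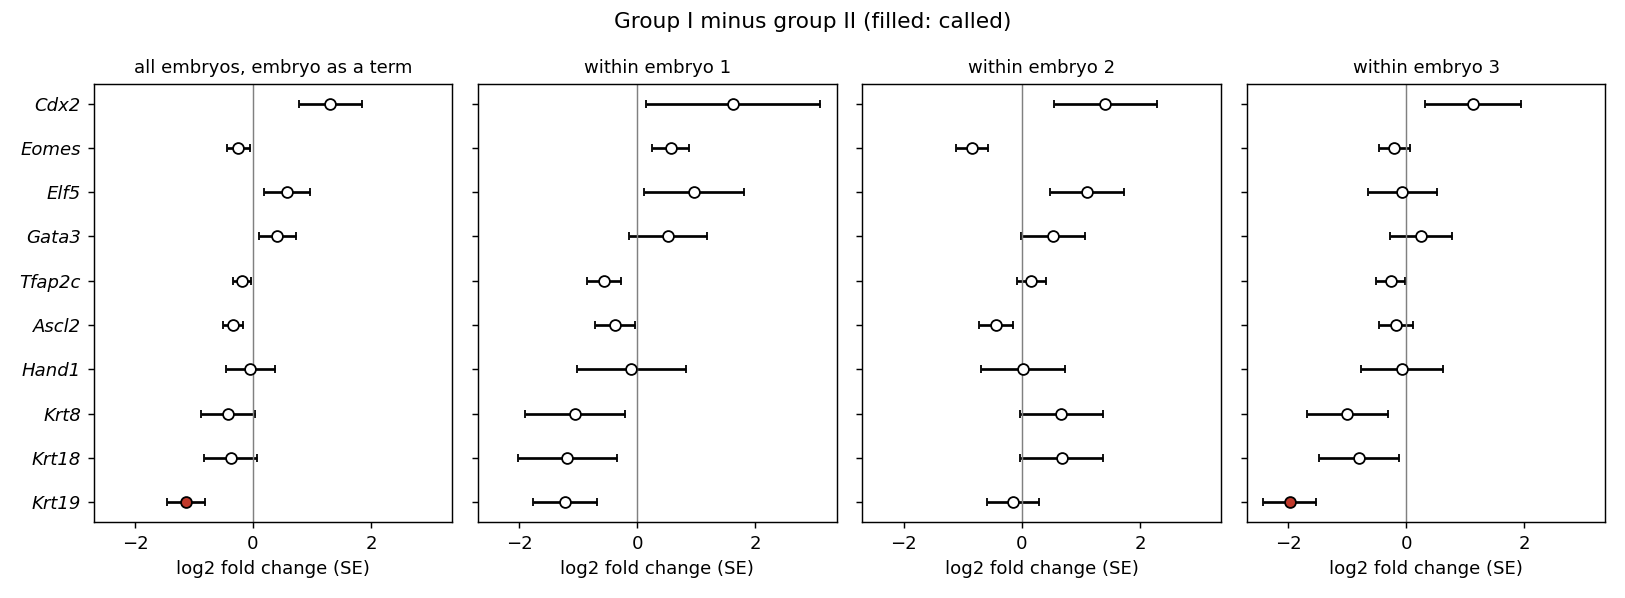
Log2 fold change of each member between group I and group II (horizontal axis), over all embryos and within each, with the SE from edgeR and filled where called. Krt19 is called over all embryos at -1.13 and in embryo 3 at -1.97, and in embryo 2 it stood at -0.15.

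Since Krt18 and Krt19 are alternative partners of keratin 8, their ratio was compared, a choice made after their values had been seen. The log2 CPM of Krt19 minus that of Krt18 averaged -1.22 in group I and -0.46 in group II. The difference within embryos was -0.70, being 0.00 in embryo 1, -1.02 in embryo 2 and -1.08 in embryo 3. In embryo 2 the log2 fold change of Krt19 between the groups was -0.15 (SE 0.44, edgeR) and that of Krt18 0.68 (SE 0.70). In embryo 3 they were -1.97 and -0.80. Within group II of embryo 2 the ratio ran from 0.84 in line 2.1 (Krt18 at 11.4 CPM) to -1.35 in line 2.7 (81.3 CPM). The level of Krt18 was not accounted for, and partner use at an equal level was not tested. An exact permutation test within embryos over 12250 relabelings gave a two-sided p = 0.0238, the smallest it can give being 8.16e-05. Group membership was itself set from the RNA of the lines, so relabeling cannot show how often chance alone gives such a difference. Krt8 and Krt18 stayed closer, with a log2 CPM difference from -0.46 (line 1.5) to 0.68 (line 2.6) over the 19 lines.

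**Figure D4:**
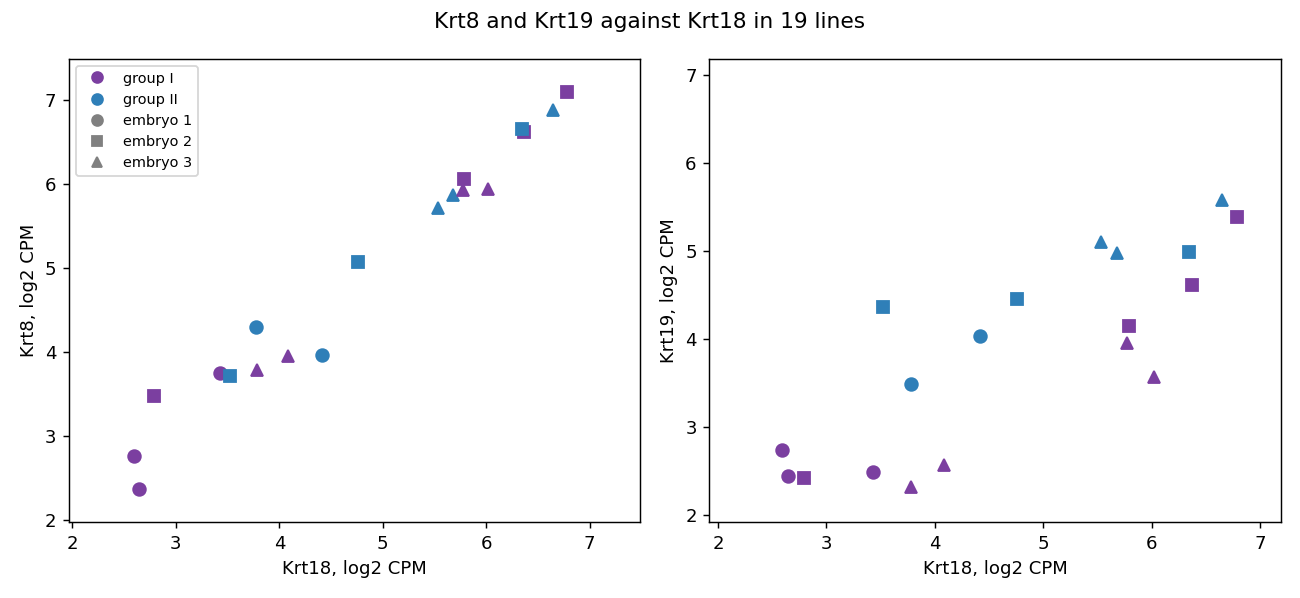
Krt8 (left) and Krt19 (right) against Krt18, as log2 CPM, for the 19 lines by embryo (marker shape) and group (colour). Krt8 follows Krt18 closely over its 18.4-fold range, while the group I lines of embryo 3 lie low in Krt19 at a given level of Krt18.

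Among sister lines, with the mean of each embryo removed, 8 of the 45 pairs of members correlated at an adjusted p under 0.05 and all 8 were positive. Krt8 and Krt18 had r = 0.98 and rho = 0.98 (permutation within embryos over 100000 draws, p = 1e-05, the smallest they can give, adjusted p = 0.00045) and r = 0.97 without the 2 lines farthest from the median. Krt19 went with both, at r = 0.79 (rho = 0.71) with Krt8 and r = 0.79 (rho = 0.70) with Krt18 (permutation p = 9e-05 and 7e-05, adjusted p = 0.00101 for each), and r = 0.81 and 0.80 without the 2 farthest lines. Hand1 went with Krt8 at r = 0.81 (rho = 0.72, permutation p = 0.0005, adjusted p = 0.0045) and with Krt18 at r = 0.80 (rho = 0.72, permutation p = 0.00116, adjusted p = 0.0087), but in embryo 1 these were 0.17 and -0.16. Without lines 2.6 and 3.4 they were 0.72 and 0.67. Cdx2 and Gata3 had r = 0.81 and rho = 0.84 (permutation p = 2e-05, adjusted p = 0.00045), and 0.93, 0.92 and 0.71 within embryos 1, 2 and 3. The value of embryo 1 rests on 5 lines with at most 10 Cdx2 counts each. Gata3 also went with Krt8 (r = 0.63, rho = 0.64, permutation p = 0.00299, adjusted p = 0.0192) and Krt18 (r = 0.59, rho = 0.63, permutation p = 0.00574, adjusted p = 0.0323). Those rose to 0.69 and 0.71 without lines 1.1 and 1.3. Cdx2 and Krt19 had r = 0.03.

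**Figure D5:**
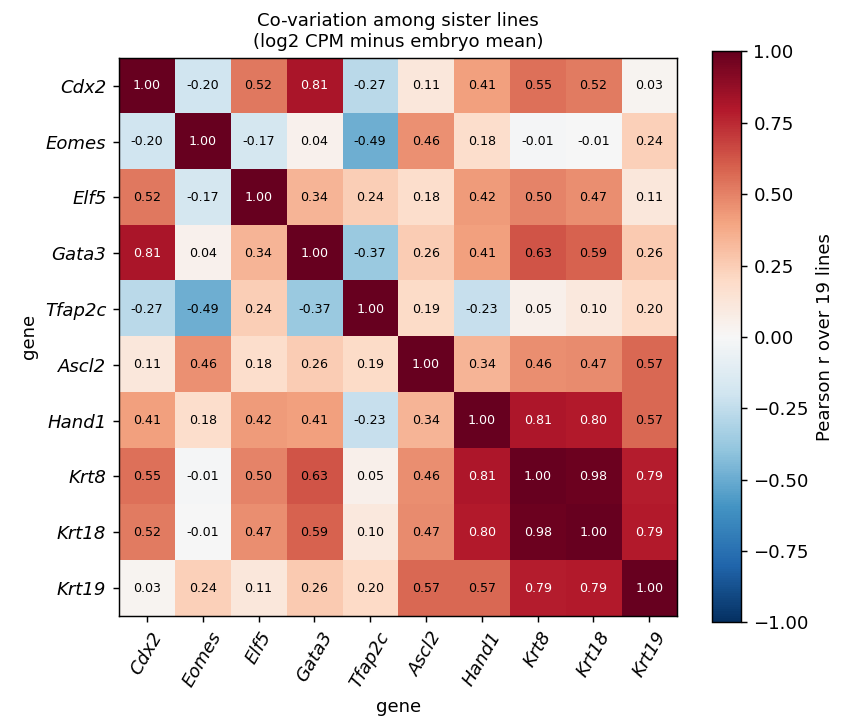
Pearson correlation between each pair of members (both axes list the genes) over the 19 lines after the embryo mean was subtracted from log2 CPM. The highest values are 0.98 for Krt8 with Krt18 and 0.81 for Cdx2 with Gata3 and for Hand1 with Krt8, and Hand1 with Krt19, at 0.57, did not pass (adjusted p = 0.0792, permutation).

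Variation among sister lines was large for the keratins. With genes of at least 1 CPM on average, the SD of log2 CPM within embryos was 1.21 for Krt8 and 1.21 for Krt18, ranks 96 and 97 of 12720 protein coding genes, 1.13 for Hand1 (rank 132) and 1.03 for Krt19 (rank 170). The median gene had 0.23, and Eomes (0.48), Ascl2 (0.42) and Tfap2c (0.38) lay nearer to it. The 3 genes most like Krt8 in this pattern, over 19 lines and 12712 candidates, were Magea9 (r = 0.95), Nxf7 (r = 0.95) and Plac1 (r = 0.95), all on the X chromosome, and Plac1 is a placenta-enriched gene. Those most like Cdx2 were S1pr1, Ccnj and Nufip2 (r = 0.86 for each), and for Eomes Proser2 (r = 0.86), Sun2 (r = 0.85) and Acad12 (r = 0.83).

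Other trophectoderm genes were counted from lists. Of 21 early trophectoderm and trophoblast stem cell genes, 19 were tested, and in embryo 2 against embryo 1 edgeR called 3 higher and 1 lower, against 4.35% of all genes (median log2 fold change 0.35, with -0.01 over all genes). Rhox9 rose by 2.17 (SE 0.43, adjusted p = 0.00309, edgeR) and Rhox6 by 2.04, both homeobox genes of the placenta on the X chromosome. The labels give no sex for the embryos, and its part was not tested. Sox15, a trophoblast factor, fell by 0.92 (SE 0.15, adjusted p = 0.000363, edgeR). In embryo 3 against embryo 1, 5 were higher and 0 lower, against 5.45% of all genes, at a median of 0.46. Among them were Plac1 (3.23, SE 0.90, adjusted p = 0.0300 from edgeR), Gata2 (1.68), a partner of Gata3, and Ets2 (0.67), a factor of trophoblast stem cells. Plac1 stood at 0.431 ± 0.528 CPM in embryo 1 (SD, n = 5) and 4.16 ± 3.16 CPM in embryo 3 (n = 7). Embryo 3 against embryo 2 had 3 higher and 0 lower, against 5.63% of all genes, Ets2 (0.82), Tfap2a (1.03), an AP-2 factor, and Sox15 (0.60). The groups had 1 higher in group I, Bmp4 (0.74), a signal to trophoblast. The 2 lower in group I were the P-cadherin gene Cdh3 (-0.66) and the DNA-binding factor Arid3a (-0.64). These 3 of 19 stand beside 11.9% of all genes. Cdh3 lies on chromosome 8. Against sister lines, the median log2 shift of that chromosome's genes was -0.12 to 0.10 in group I and -0.13 to 0.46 in group II. The part of this shift in the Cdh3 difference was not tested.

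The differentiated trophoblast list (12 genes, 4 tested) had 1 call between embryos 3 and 1, Pparg (2.26, SE 0.69, adjusted p = 0.0480, edgeR), a nuclear receptor of the placenta, and 0 between embryos 2 and 1 (edgeR, 2 at an unadjusted p under 0.05). Prl3d1, Prl3b1, Prl2c2 and Ctsq of this list, genes of placental hormones and of a protease, had 0 counts in all 19 lines. Of 17 tested epithelial genes, edgeR called 1 lower in embryo 2 than in embryo 1, the desmosomal gene Dsp (-0.86), and 1 higher in embryo 3 than in embryo 1, the water channel gene Aqp3 (1.01), beside 4.35% and 5.45% of all genes. Aqp3 was also higher in group I (0.77, SE 0.17, adjusted p = 0.00377, edgeR), with 138 ± 53.7 CPM in group I (SD, n = 11) and 85.5 ± 38.4 CPM in group II (SD, n = 8), and so was Aqp8 (2.58), at most 0.325 CPM. These were 2 of 18 genes of the list tested between the groups, near the 11.9% of all genes, and the median log2 fold change of the list was -0.16, with 12 of 18 at an unadjusted p under 0.05. Among 8 other keratins tested, edgeR called 0 between embryos 2 and 1 (1 at an unadjusted p under 0.05) and 0 between embryos 3 and 1 (4 at an unadjusted p under 0.05). Between the groups Krt20 was lower (-1.18) and Krt14 higher (1.01) in group I, both at 1.24 CPM or less in every line. Of 14 Hippo genes, Amot was higher in embryo 2 than in embryo 1 (1.28, SE 0.36, adjusted p = 0.0410, edgeR). This upstream regulator on the X chromosome was the single call of the list there, beside 4.35% of all genes.

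Reads could be shared with processed pseudogenes of 2 members and with RNAs that overlap 5 members, as strand use in counting is not known. Krt8-ps is a processed pseudogene 98.6% identical to Krt8 over 941 bases, with 2 to 152 counts per line. Its count was 1.12% to 2.74% of that of Krt8 in embryos 1 and 2 and 0.138% to 0.588% in embryo 3. Gm5200, a 90.4% identical copy of Krt18, had 0 to 2 counts. Of the RNAs that overlap members, those with a row in the count table (Gm33460 at Eomes, Gm13256, Gata3os and Gata3un at Gata3 and Gm36026 at Krt8) had at most 7 counts. The others, antisense Gm33408 at Eomes, Gm32915 at Hand1 (735 shared exon bases) and Gm73150 at Krt19 (329 shared exon bases), and Gm75628 on the strand of Gata3, come from the later annotation and were not analysed here, so the values of Eomes, Gata3, Hand1 and Krt19 carry this uncertainty.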

How the data were processed

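The deposited values are expected counts from RSEM 1.3.0, which the authors made from stranded poly-A read pairs aligned with STAR to GRCm39. They were given as whole numbers for 55416 genes and 19 lines, with 1 column per line and 0 columns without a sample. Strand use in counting is not given in the sources used here. Gene positions and exon lengths come from GENCODE M39, and sequence copies from BLAST 2.17.0 (identity of at least 90% over 200 bases).

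Counts were filtered with filterByExpr, scaled by TMM and tested by edgeR 4.0.16 (quasi-likelihood F-test) in R 4.3.3, with embryo, or embryo and group, as terms (18878 and 20333 genes tested, Benjamini-Hochberg adjusted over all of them). All 10 members passed both filters. Calls needed a fold change over 1.5 with an adjusted p under 0.05, and among the embryos at the adjusted p alone. The fit was tested on simulated data. Log2 CPM used a prior count of 2, and correlations used permutation within embryos. Embryos were taken from the labels and groups from the study.

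The members and lists were chosen with earlier results of these data known. Named genes were the 10 members, up to 4 called genes per list and comparison, the 3 genes most correlated with Cdx2, Eomes and Krt8, and copies or overlapping genes. The alternatives were DESeq2 1.42.0, RLE factors, other filters, no fold threshold, each line left out, and lines 1.5 and 2.4 left out. Lines 2.2, 3.1, 3.2, 3.6 and 3.7 were also left out together. Their median log2 shifts of chromosome 8 genes were 0.46, 0.36, 0.09, 0.10 and -0.06, while lines 1.2 (0.18) and 2.1 (0.15) were kept. The remaining alternatives were the line number as a replicate block, and fibroblast score, group or no embryo as covariates. The other assays of the study were not analysed here. The values of 1 listed gene are not reported here.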

Additional observations from a re-analysis of the deposited data

Results flagged for a closer look

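Over 30 sets of values, 10 members in 3 embryos, 2 single lines stood far from their sister lines, where chance flags about 1 set in 20. Both were line 2.6. Its Tfap2c level, 155 CPM, was the highest of the 7 lines of embryo 2, with a gap to the next line of 0.654 of the whole range on the log2 CPM scale. Its Krt19 level, 5.32 CPM, was the lowest, with a gap of 0.583 of the range on the same log2 scale. The cause was not tested.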

How the results depend on the processing

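No called member changed direction under any alternative. Leaving out each line in turn gave 1 to 4 called members between embryos 2 and 1, 1 to 5 between embryos 3 and 1, 1 to 1 between embryos 3 and 2, 2 to 6 among the embryos and 1 to 2 between the groups, against 3, 5, 1, 5 and 1. Without lines 1.5 and 2.4 there were 1, 2 and 3 (embryos 2 and 1, embryos 3 and 1, among the embryos). Without the 5 lines left out together there were 0 between embryos 3 and 1 and 0 between embryos 3 and 2. There was 1 among the embryos and 0 between the groups. With the fibroblast score as a covariate there were 1, 3 and 0 (embryos 3 and 1, among the embryos, groups). With group as a covariate 5 differed between embryos 2 and 1, without an embryo term 0 between the groups, and by DESeq2 2 (Cdx2 with Krt19, Cdx2 at an adjusted p of 0.0437). A replicate block on the line number gave 1 between embryos 2 and 1, 2 between embryos 3 and 1 and 3 among the embryos. The labels tie no numbers across embryos, and of 17 pairs of same-numbered lines 6 had a correlation over 0.1 (median 0.02). The causes of these changes were not tested. Of the 45 pairs of members, 18 passed without centring on the embryo means and 8 by Spearman. At the depth of these libraries Cdx2 and Elf5 rest on few counts.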
